A study of Mus musculus with 24 samples.

Results

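The transcripts followed here are those of 9 genes for basic leucine zipper transcription factors: the Fos genes Fos, Fosb, Fosl1 and Fosl2, the Jun genes Jun, Junb and Jund, and the activating transcription factors Atf2 and Atf3. They were chosen by name, with earlier results of these data known, and all 9 were found among the 20782 genes of the deposited table of normalized reads. The table covers 24 mouse libraries in 8 groups of 3, all made from lumbar dorsal root ganglia, where the somata of sensory neurons sit. One pair of groups is embryonic (E12.5 and E17.5). Another pair is adult L4-5 ganglia after either a sham operation or a peripheral lesion, called conditioned in the series text. Adult lumbar ganglia were also dissociated, plated at low density on laminin in Neurobasal-A with B-27, and collected 6, 12, 24 and 36 h later. The sources used here give neither the strain, the nerve lesioned nor the interval from lesion to collection. The same culture and cell sorting protocols are attached to every sample, also to those with no time after plating, and how they applied to these is not stated.

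AP-1 is a dimer that a Fos protein forms with a Jun protein, or that Jun proteins form with each other, and it binds short palindromes in the DNA of its target genes. Fos and Fosb are classical immediate early genes, transcribed within minutes of a stimulus and usually for a short time. Jun, whose protein is phosphorylated by JNK after axon injury, and Atf3, which can pair with Jun, are standard markers of injured sensory neurons. Atf2 is a widely expressed partner of Jun that JNK also phosphorylates.

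Values are normalized reads, which are read counts divided by a factor for each library. Between 3.10 and 25.7 M reads lay behind each library, and under 5 M behind 5 of them: E17.5 replicates 2 and 3, 6 h replicate 3, 12 h replicate 1 and 24 h replicate 1. Changes are log2 differences of value + 1 with their SE, and a gene is said to have risen or fallen where limma, a linear model fitted over all genes, gave an adjusted p below 0.05. The labels do not tie the libraries of a group to separate animals, so the p-values weigh differences against the scatter of these libraries, which may be technical. All 8 neuron markers checked, among them Snap25, Tubb3 and Avil, were detected in every group, with summed levels of 128490.0 to 146100.0 in sham and lesion libraries and 44482 to 73233 in culture. Markers of other cells were present too. The 5 Schwann cell markers summed to 67858 to 92067 in operated ganglia and 19978 to 31351 in culture, and the 7 macrophage markers to 744 to 782 after sham surgery and 1649.9 to 2436 after lesion. None of the markers of 10 cell types was at 0 throughout a group. In such bulk samples fewer cells of a type and less RNA per cell cannot be told apart, and the part of these markers in the results was not tested.

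Promoter windows of 250 bases upstream of the transcript start were found for 8 of the 9 genes in RefSeq (GRCm38.p6), all but Fosl1. RefSeq's starts differ from the ends of the gene spans given below for Fosb, Fosl2, Junb, Jund and Atf3, and the Atf3 window lies inside the Atf3 span. The windows of 4 genes are shown because these genes stand for a contrast in change after plating, described below. Fos and Fosb fell from the first to the last culture time, and Jun and Atf3 were not called lower. All 4 were still higher than after sham surgery at the last culture time, Fos by a larger fold than Jun. Capitals mark every match to TGACG (the core of the cyclic AMP response element), TGACATCA (a variant AP-1 element) or TATAAA, searched on both strands.
Fos, chr12:85473640-85473889, plus strand: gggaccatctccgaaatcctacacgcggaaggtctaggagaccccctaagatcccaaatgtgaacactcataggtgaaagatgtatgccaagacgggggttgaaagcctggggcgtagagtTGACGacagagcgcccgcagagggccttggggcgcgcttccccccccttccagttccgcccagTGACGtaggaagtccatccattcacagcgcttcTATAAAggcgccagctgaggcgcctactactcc
Fosb, chr7:19310046-19310295, minus strand: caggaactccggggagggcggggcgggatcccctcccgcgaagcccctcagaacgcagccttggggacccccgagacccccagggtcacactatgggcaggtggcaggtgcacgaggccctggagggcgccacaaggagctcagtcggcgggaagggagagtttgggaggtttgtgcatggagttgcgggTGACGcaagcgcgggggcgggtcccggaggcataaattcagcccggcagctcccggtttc
Jun, chr4:95052223-95052472, minus strand: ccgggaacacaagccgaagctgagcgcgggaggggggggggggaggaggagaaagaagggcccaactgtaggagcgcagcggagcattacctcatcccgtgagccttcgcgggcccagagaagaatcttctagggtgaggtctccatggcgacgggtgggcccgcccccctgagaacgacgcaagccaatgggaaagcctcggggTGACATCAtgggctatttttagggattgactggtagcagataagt
Atf3, chr1:191183334-191183583, minus strand: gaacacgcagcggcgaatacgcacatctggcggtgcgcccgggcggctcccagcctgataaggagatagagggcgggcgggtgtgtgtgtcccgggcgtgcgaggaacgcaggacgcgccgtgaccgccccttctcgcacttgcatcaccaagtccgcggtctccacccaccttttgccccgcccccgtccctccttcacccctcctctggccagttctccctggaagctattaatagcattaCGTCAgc
TGACG occurred in 4 of the 8 windows (Fos, Fosb, Junb and Atf3), against 17.8% of all 32851 mouse windows of this length. In Fos it began at positions -129 and -66 from the transcript start and in Fosb at -60, and in Atf3 it lay on the other strand from -7 to -3. TGACATCA was found in Jun alone among the 8, starting at -45, against 2.93% of all windows, and TATAAA in Fos alone, starting at -33, against 12.4%. The canonical AP-1 palindrome TGANTCA (in 6.75% of all windows), the full element TGACGTCA (in 1.55%, each holding TGACG as well) and the CArG box bound by serum response factor (in 1.47%) had no match in the 8 windows. These are matches of letters in short windows, sequence outside the 250 bases was not searched, and no binding was measured.

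**Figure D1:**
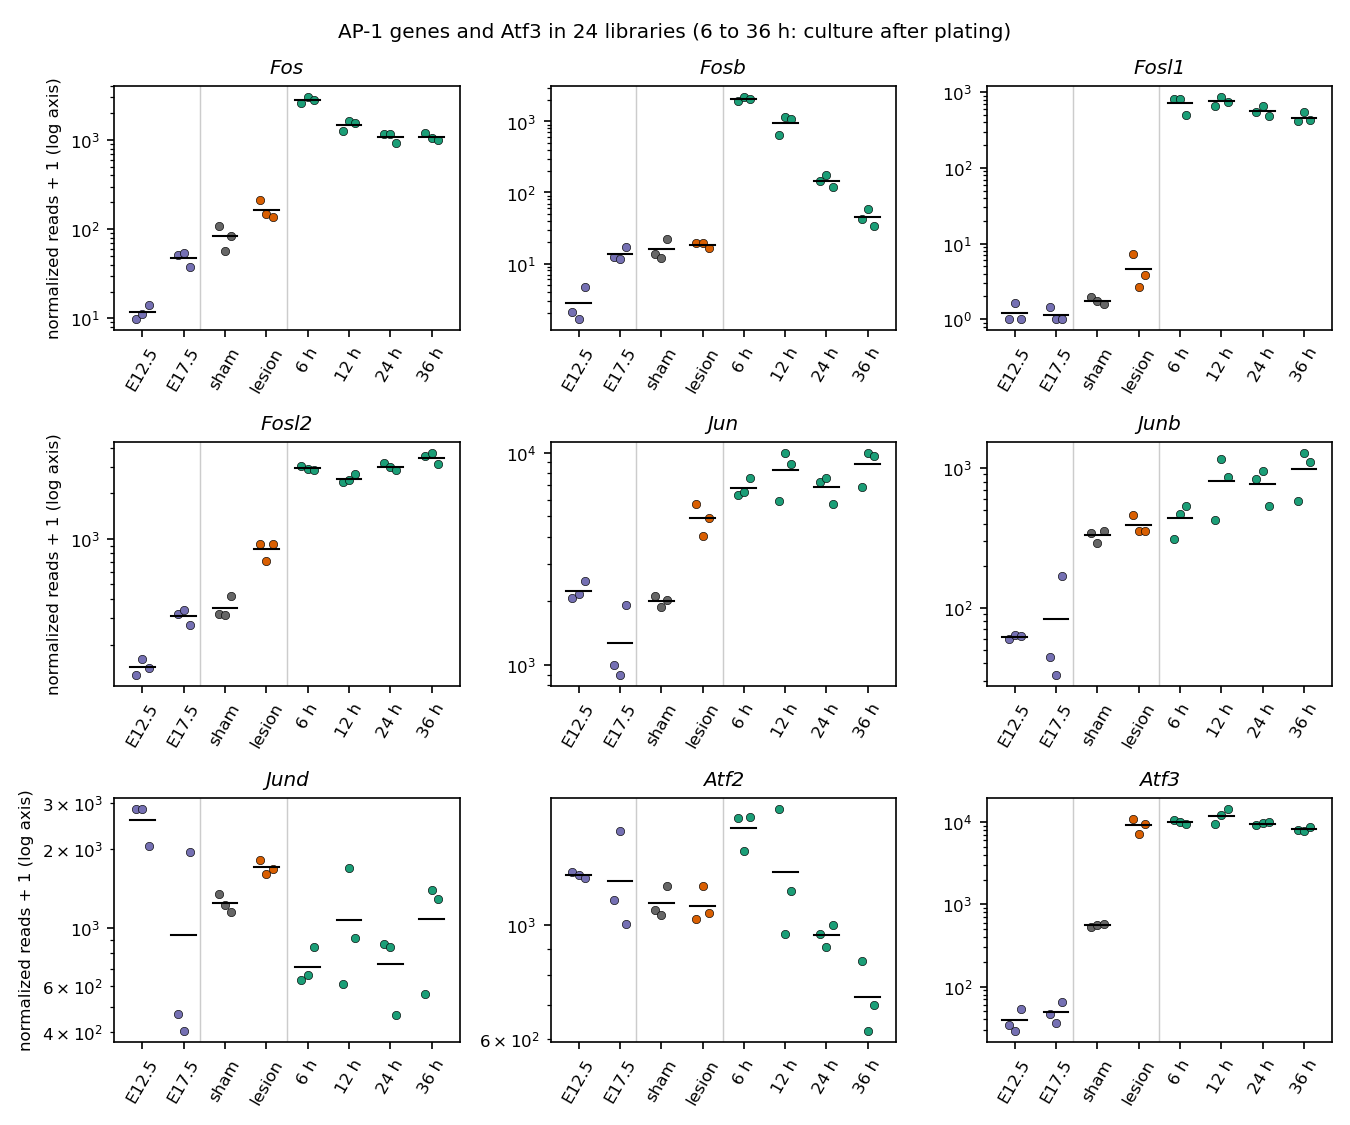
Normalized reads plus 1 on a log axis for each of the 9 genes in the 24 libraries, with points for libraries and lines for group means (purple embryonic, grey sham, orange lesion, green culture). Atf3 stood between 7089 and 14423 in all lesion and culture libraries and between 524 and 579.8 after sham surgery, while the mean of Fosb dropped from 2083 at 6 h to 43.9 at 36 h.

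The comparison of lesion with sham asks which of these factors were higher in ganglia with a peripheral lesion. Atf3, Fosl2, Jun, Fos and Jund rose, and Fosb, Junb and Atf2 were not called. These were 5 rises and 0 falls among the 8 genes that passed the filter on low values, where 20.9% of all 14556 genes tested rose and 20.2% fell (41.2% in either direction). Atf3 and Jun are standard markers of injured sensory neurons, so their rise after lesion is no independent evidence.

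Atf3 (ENSMUSG00000026628.13) is a minus strand gene at 191170296 to 191218039 of chromosome 1 in mm10. Its sham libraries held 524, 566 and 579.8 normalized reads, and its lesion libraries held 11051, 7089 and 9482. Every lesion library was far above every sham library, and the fold between the group means was 16.5. The log2 change was 4.02 ± 0.14 (limma adjusted p = 1.73e-07), the largest among the 9 genes. It was 4.02 within the libraries numbered 69 to 75 in the labels and 4.03 within the pair numbered 123 and 124.

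Jun (chromosome 4, 95049034 to 95052222, minus strand), the main Jun protein of the injury response, went from 2119, 1874 and 2028 after sham surgery to 5744, 4063 and 4908 after lesion. The groups did not overlap, and the change was 1.28 ± 0.11 (adjusted p = 5.02e-06). Fosl2 (chromosome 5, 32135801 to 32157842, plus strand), which encodes the Fos-related antigen Fra-2, moved by nearly the same amount. It went from 318, 311 and 416 to 923, 709.7 and 929.7, a change of 1.29 ± 0.13 (adjusted p = 1.78e-05). Fos (chromosome 12, 85473890 to 85477273, plus strand) was low in operated ganglia, at 107, 56.3 and 83.2 after sham surgery and 209.8, 145 and 136 after lesion. Its change of 1.01 ± 0.23 was called (adjusted p = 0.00486), and the lowest lesion library stood above the highest sham library. Within the library series of 69 to 75 the Fos difference was 1.16 and within 123 and 124 it was 0.71, while those of Jun were 1.28 and 1.27 and those of Fosl2 1.36 and 1.16.

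Jund (chromosome 8, 70698949 to 70700616, plus strand), the Jun gene usually highest in resting cells, had the smallest called change. It stood at 1355, 1227 and 1156 after sham surgery and 1827, 1606 and 1685 after lesion, a change of 0.45 ± 0.08 (adjusted p = 5.53e-04). This call rests on the small spread among the operated ganglia, since with 1 spread estimated over all 24 libraries the adjusted p was 0.535. Junb (chromosome 8, 84974484 to 84978718, minus strand) was at 343, 292 and 355 against 464, 356 and 351 after lesion, so the groups overlapped (log2 difference 0.23 ± 0.12, adjusted p = 0.132). Fosb (chromosome 7, 19302696 to 19310051, minus strand) was near its lower limit in both groups, at 11.0 to 21.2 after sham surgery and 15.6 to 18.6 after lesion (0.26 ± 0.31, adjusted p = 0.524). Its difference had opposite signs in the library series, 0.60 and -0.42. Atf2 (chromosome 2, 73816509 to 73892639, minus strand) stood at 1048 to 1191 and 1027 to 1189 (-0.02 ± 0.08, adjusted p = 0.888).

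Fosl1 (chromosome 19, 5447547 to 5455946, plus strand), which encodes Fra-1, did not pass the filter in operated ganglia. Behind it was 1 read in each sham library, and 8, 1 and 5 reads in the lesion libraries. The ratio of the pooled reads per depth was 5.32, with a 95% exact interval of 1.49 to 28.9 that covers counting error only.

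The next question was how these genes stood in dissociated ganglia against sham ganglia. At 6 h after plating 7 of the 9 were higher than after sham surgery (Fosl1, Fosb, Fos, Atf3, Fosl2, Jun and Atf2, by falling size) and 0 were lower, where 23.3% of all 15935 genes were higher and 24.5% lower (47.8% either way). At 36 h 7 were higher and 1 lower, where 31.3% and 32% of all genes were (63.3% either way). The groups compared differ in dissociation, plating and library series together, and these cannot be told apart. Summed neuron markers were lower at 6 h (68016 to 73233) and at 36 h (46111 to 55242) than after sham surgery (128900.0 to 137080.0), and summed Schwann cell markers were lower too. Summed endothelial markers were higher, at 2144 to 2884 at 6 h and 3649 to 4883 at 36 h against 926 to 1064, and all 4 rose at 36 h against sham (median 2.11).

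Fosl1 went from 0.984, 0.731 and 0.573 after sham surgery, a single read in each library, to 822, 812 and 497 at 6 h. Pooled over 3 libraries, this is 2750 reads against 3, a ratio of 1087 with an exact 95% interval of 372 to 5276 for counting error. At 36 h Fosl1 still held 413, 539.6 and 434, a ratio to sham of 622 (212 to 3021). The lesion ratio of 5.32 given above is against the same sham libraries. Against the lesion libraries themselves the ratio at 36 h was 117 (69.4 to 214.5). Fosl1 passed the filter on low values only through the cultures, where it is high, so its calls against operated ganglia, counted above and below, are no independent support.

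Fosb and Fos were the next largest. Fosb stood at 1947, 2201 and 2102 at 6 h against 12.8, 11.0 and 21.2 after sham surgery, a 139-fold difference of means (log2 7.08 ± 0.32, adjusted p = 4.99e-14). Fos stood at 2627, 3024 and 2807 against 107, 56.3 and 83.2, a 34.3-fold difference (log2 5.13 ± 0.20, adjusted p = 8.86e-15). In lesioned ganglia Fosb reached at most 18.6 and Fos at most 209.8. At 36 h both were still above lesioned ganglia, Fos by 2.74 ± 0.20 and Fosb by 1.24 ± 0.32 (adjusted p = 1.6e-10 and 0.00235).

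Atf3 levels in the dish overlapped those after lesion. It stood at 10686, 10176 and 9598 at 6 h and at 8010, 7860.1 and 8823 at 36 h, beside 7089 to 11051 after lesion. The difference of 36 h from lesion was -0.14 ± 0.20 (adjusted p = 0.578), and the libraries of these groups overlapped. Without lesion replicate 1 that difference was 0.0038. Against sham ganglia, Atf3 was higher by 4.19 ± 0.20 at 6 h and 3.88 ± 0.20 at 36 h (adjusted p = 1.22e-13 and 1.89e-13).

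Jun and Fosl2 stood higher in the dish than after lesion. At 36 h Jun was at 6909, 9916 and 9632, above all lesion libraries, a difference from lesion of 0.84 ± 0.22 (adjusted p = 0.00236). Fosl2 was at 3513, 3677 and 3106 at 36 h, a difference from lesion of 2.01 ± 0.13 (adjusted p = 1.51e-11). Against sham, Jun was higher by 1.76 ± 0.22 at 6 h and 2.12 ± 0.22 at 36 h, and Fosl2 by 3.07 ± 0.13 and 3.31 ± 0.13. In all, 6 genes were higher at 36 h than after lesion and 1, Atf2, was lower, where 26.4% and 29.1% of all genes were (55.5% either way). The Junb difference from lesion, 1.27 ± 0.42, was not called without 36 h replicate 2 or 3 (adjusted p = 0.0717 and 0.0512).

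Unlike Jun, neither Junb nor Jund was called against sham at 6 h, and at 36 h Junb was called higher, as Jun was. These genes were not tested against each other. Junb was not called at 6 h (310.03, 468 and 532 against 343, 292 and 355, log2 difference 0.37 ± 0.42, adjusted p = 0.49) and was higher at 36 h (577, 1279 and 1104, difference 1.50 ± 0.42, adjusted p = 0.00356). Jund was at 629, 658 and 843 at 6 h, below all sham libraries, but was not called (-0.82 ± 0.43, adjusted p = 0.123), and with adult libraries alone it was called lower (adjusted p = 0.039). At 36 h, with 558, 1394 and 1293, it overlapped the sham range of 1156 to 1355 (-0.31 ± 0.43, adjusted p = 0.549, and 0.11 without 36 h replicate 1). All 36 h libraries were below all lesion libraries, a difference of -0.77 ± 0.43 that was not called (adjusted p = 0.138) except with adult libraries alone (0.0469) or the GC trend described below removed (0.0486). Atf2 was higher than sham at 6 h (1614, 1394 and 1622, difference 0.48 ± 0.16, adjusted p = 0.017) and lower at 36 h (852, 620.2 and 697, difference -0.62 ± 0.16, adjusted p = 0.00195). The 6 h call of Atf2 was lost without sham replicate 1 or 2 or 6 h replicate 1 or 3 (adjusted p = 0.0509 to 0.0575).

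**Figure D2:**
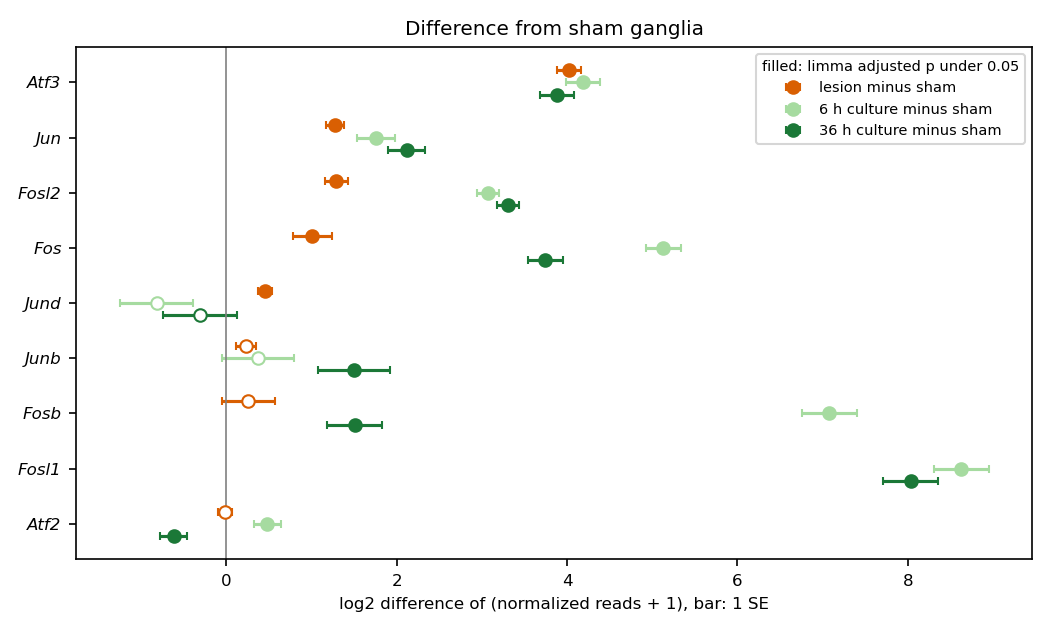
Log2 difference of each gene from sham ganglia (x axis, bar 1 SE) after lesion, at 6 h and at 36 h of culture, filled where limma called it; the 3 differences of a gene share the sham libraries, and Fosl1 was not tested after lesion. Atf3 sits near 4 in all 3 comparisons, and Fosb is at 7.08 at 6 h, 1.51 at 36 h and 0.26 after lesion.

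The time course asks which genes held their level between 6 and 36 h. Fosb, Fos, Atf2 and Fosl1 fell, Junb rose, and Atf3, Fosl2, Jun and Jund were not called. Of all 15006 genes 25.3% were higher at 36 h and 25.3% lower (50.6% either way). Over the same interval 4 of 4 endothelial, 4 of 6 macrophage and 3 of 5 fibroblast markers rose and 4 of 8 neuron markers fell, and their part in these results was not tested. By the F test over the 4 times Fos, Fosb, Fosl1, Fosl2, Atf2 and Atf3 changed (45.7% of all genes did), and Jun, Junb and Jund were not called. Several of these calls turned on 1 library. Fosl1 was lost without 12 h replicate 2 or 36 h replicate 1 or 3 (adjusted p = 0.0523 to 0.0796), and Fosl2 without 36 h replicate 1 or 2 (0.0533 and 0.059). Jun was called without 12 h replicate 1 (0.0241), and Junb without 12 h replicate 1 or 2, 24 h replicate 3 or 36 h replicate 1 (0.0177 to 0.0444).

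Fosb decayed at every step. From 1947, 2201 and 2102 at 6 h it went to 643, 1140 and 1074 at 12 h, to 145, 176 and 117 at 24 h and to 41.0, 57.4 and 33.2 at 36 h. No 2 neighbouring times overlapped, and 45.7%, 7.00% and 2.11% of the 6 h mean were left at 12, 24 and 36 h. The steps were -1.17 ± 0.23, -2.67 ± 0.23 and -1.73 ± 0.23 (adjusted p = 0.00437, 4.43e-06 and 0.0013), where 4.72%, 6.74% and 1.55% of all genes fell. Fosb and Fos fell in each of the first 2 steps and Fosb alone in the last, and none of the 9 rose in a step, where 5.86%, 4.82% and 1.11% of all genes did (10.6%, 11.6% and 2.65% either way). Without 12 h replicate 1, Junb also rose (1.22) and Atf2 fell (-0.54) from 6 to 12 h, with Atf3 up by 0.39 (adjusted p = 0.0363, 0.0145 and 0.0237). The whole change was -5.57 ± 0.23 (adjusted p = 1.46e-10), and yet all 36 h libraries remained above all sham libraries, by 1.51 ± 0.32 (adjusted p = 3.1e-04).

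Fos fell early and then levelled off well above its level in ganglia. It went from 2627, 3024 and 2807 at 6 h to 1259, 1638 and 1557 at 12 h (-0.93 ± 0.13, adjusted p = 5.32e-04) and to 1158, 1157 and 919 at 24 h. At 36 h it stood at 1206, 1040.5 and 1002, a step from 24 h of 0.01 ± 0.13 (adjusted p = 0.976). The step from 12 to 24 h was called at -0.46 ± 0.13 (adjusted p = 0.0379), but without 12 h replicate 2 or 3, or without any 1 of the 24 h libraries, it was not (adjusted p = 0.0609 to 0.156). The mean at 36 h was 38.4% of that at 6 h and 13.2 times that of sham ganglia.

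Fosl1 and Atf2 also fell, with no single step called. Fosl1 was at 655, 861 and 749 at 12 h, 539, 661 and 484 at 24 h and 413, 539.6 and 434 at 36 h. Its whole change was -0.59 ± 0.19 (adjusted p = 0.018). It was not called without 6 h replicate 1 or 2 or 36 h replicate 1 or 3 (adjusted p = 0.0586 to 0.088), nor with 1 spread over all 24 libraries (adjusted p = 0.127). Atf2 went from 1614, 1394 and 1622 at 6 h to 852, 620.2 and 697 at 36 h, a change of -1.10 ± 0.17 (adjusted p = 9.1e-05), with 46.8% of the 6 h mean left. At 12 h its libraries were spread from 959 to 1683.

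Atf3 changed little beside these genes. It was at 9378, 12222 and 14423 at 12 h and at 9139, 9638 and 9947 at 24 h, and 81.1% of the 6 h mean remained at 36 h. The change from 6 to 36 h was -0.30 ± 0.13 and missed the threshold (adjusted p = 0.0709), although no 36 h library reached the lowest 6 h library. It was called lower without 12 h replicate 1 (adjusted p = 0.0153) or replicate 3 (adjusted p = 0.0362) and with DESeq2 (adjusted p = 0.0419), and the value ranged from -0.35 to -0.27 over the alternatives. Atf3 passed the F test with an adjusted p of 0.027, and did not without 12 h replicate 2 or 3 or 36 h replicate 1 or 2 (adjusted p = 0.0638 to 0.0883). Without 12 h replicate 1 it also fell from 12 to 24 h, by 0.47 (adjusted p = 0.00743).

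Fosl2 and Jun were at least as high at 36 h as at 6 h. Fosl2 held 3042, 2876 and 2824 at 6 h, dipped to 2353, 2447 and 2685 at 12 h, and came to 3170.3, 2955 and 2833 at 24 h and 3513, 3677 and 3106 at 36 h. No step was called, and the whole difference was 0.23 ± 0.11 (adjusted p = 0.0807, 0.0495 without 36 h replicate 3 and 0.0422 with edgeR). Jun was at 6288, 6537 and 7606 at 6 h, 5915, 9940.3 and 8840 at 12 h, 7280.1, 7618 and 5705 at 24 h and 6909, 9916 and 9632 at 36 h. All 4 times overlapped, and the whole difference was 0.36 ± 0.19 (adjusted p = 0.121). It was called higher without 12 h replicate 1 (adjusted p = 0.0392) or 36 h replicate 1 (adjusted p = 0.0377).

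Junb rose and Jund was not called, both with a wide spread between libraries. Junb went from 310.03, 468 and 532 at 6 h to 425, 1160.3 and 855 at 12 h, 831, 957 and 534 at 24 h and 577, 1279 and 1104 at 36 h. The whole change was 1.13 ± 0.35 (adjusted p = 0.0137), and it was not called without 6 h replicate 1 or 36 h replicate 2 or 3 (adjusted p = 0.0552 to 0.0735). Jund was at 612, 1698 and 919 at 12 h and 866, 847 and 464 at 24 h, and its whole difference was 0.51 ± 0.36 (adjusted p = 0.256). Without 36 h replicate 1 it was 0.93 (adjusted p = 0.0347).

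**Figure D3:**
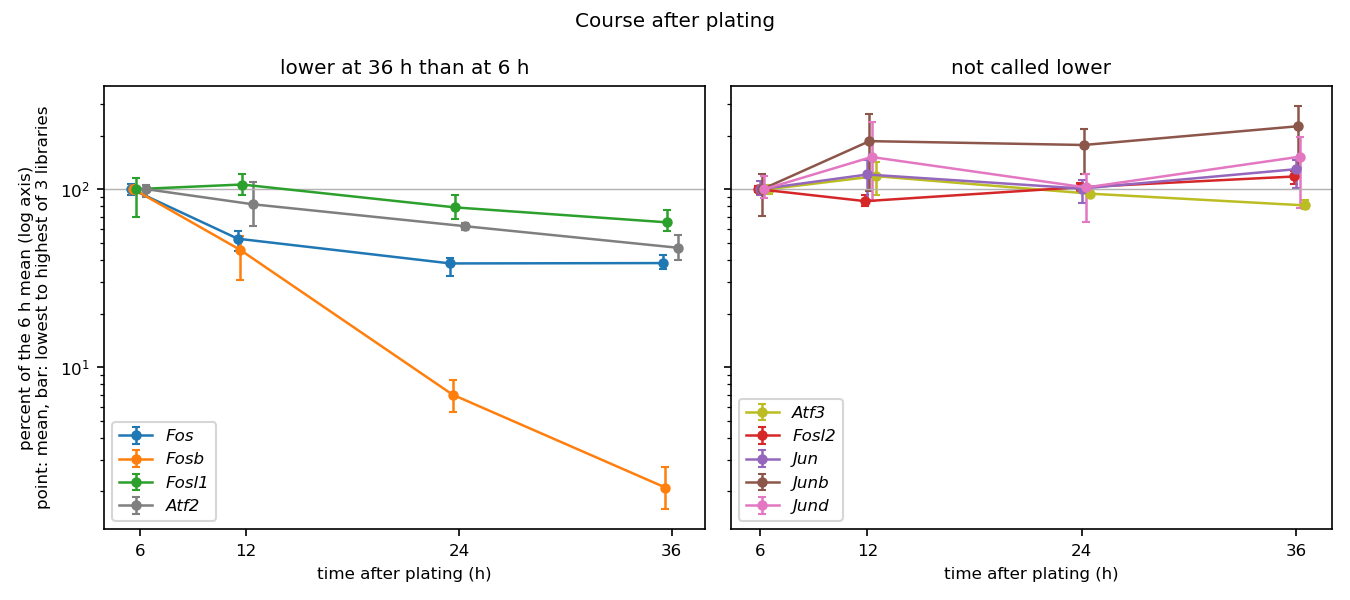
Level at each time after plating as a percent of the 6 h mean on a log axis, points for means and bars from the lowest to the highest of 3 libraries, with the 4 genes that fell from 6 to 36 h on the left and the other 5 on the right. Fosb ends at 2.11% and Fos at 38.4%, while Atf3 ends at 81.1% and Jun at 129.5%.

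Genes that rose after lesion and also stood above sham at 36 h of culture were compared with genes that decayed after plating. By this rule 4 genes were sustained, Atf3, Jun, Fosl2 and Fos, and 4 decayed, Fosb, Fos, Fosl1 and Atf2. Fos met both conditions, and Junb and Jund met neither in full. Of all genes tested, 20.9% rose after lesion, 31.3% were above sham at 36 h and 25.3% fell from 6 to 36 h. The share that met the sustained rule in full was not counted. Both its parts use the same sham libraries, and the lesioned and cultured ganglia are separate groups. The change of each gene from 6 to 36 h was also set against that of Fos within the same libraries. This compares each gene with Fos alone, which met both conditions, and does not test one class against the other. Relative to Fos, Fosl2 moved by 1.61 ± 0.18, Jun by 1.74 ± 0.21, Atf3 by 1.08 ± 0.19 and Fosl1 by 0.79 ± 0.21 (adjusted p = 3.4e-08, 7.55e-08, 2.35e-05 and 0.00163). Fosb moved by -4.19 ± 0.21 relative to Fos (adjusted p = 2.59e-13), and Atf2 was not called (0.28 ± 0.24, adjusted p = 0.273). Junb moved by 2.51 ± 0.30 and Jund by 1.89 ± 0.34. As Fos itself fell, 81.4% of all genes were called higher relative to it and 3.12% lower (84.5% either way), so a rise relative to Fos was common and a fall was not.

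The makeup of each family also shifted. Levels per kb of the longest coding transcript allow genes to be compared, though the labels do not say which transcripts were counted. Among the Fos genes, Fosl2 held the largest mean share per kb in embryonic and operated ganglia. It held 79.3% ± 3.86 (SD, n = 3) at E12.5, 65.0% ± 0.473 at E17.5, 55.6% ± 7.58 after sham surgery and 61.0% ± 5.29 after lesion. Its sham range, 47.0% to 61.4%, overlapped that of Fos, 34.4% to 49.2%. At 6 h in culture Fos led with 49.3% ± 2.40, and Fosb, Fosl2 and Fosl1 followed with 20.3% ± 1.11, 16.5% ± 1.14 and 14.0% ± 3.25. By 36 h the shares of Fosl2 (40.4% ± 0.805) and Fos (39.6% ± 3.19) overlapped, Fosl1 held 19.1% ± 2.41 and Fosb 0.886% ± 0.201. The family as a whole stood at 96.7 ± 16.8 normalized reads per kb after sham surgery, 215 ± 32.9 after lesion, 2715 ± 159 at 6 h and 1298 ± 92.3 at 36 h.

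Among the Jun genes, Jun held a larger share and Jund a smaller share after lesion and in culture than after sham surgery. These are shares of a sum, and a smaller share is not a lower level. Jund itself rose after lesion and was not called against sham at 6 or 36 h. Jund held 67.6% ± 6.25 of the family per kb at E12.5. At E17.5 it held 51.0% ± 10.2 and Jun 45.0% ± 11.1, with overlapping ranges. After sham surgery Jund held 47.9% ± 2.18 and Jun 40.4% ± 1.15. After lesion Jun held 55.2% ± 2.51 and Jund 37.1% ± 2.42, and the ranges of both groups were apart for each gene. At 6 h Jun held 76.3% ± 1.72 and Jund 15.1% ± 0.653, and at 36 h 70.7% ± 5.34 and 15.8% ± 3.42. Per kb Atf3 stood above Jun in lesion ganglia (4641 ± 1006 against 1538 ± 264 normalized reads per kb) and below it after sham surgery (281 ± 14.5 against 629 ± 38.7).

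**Figure D4:**
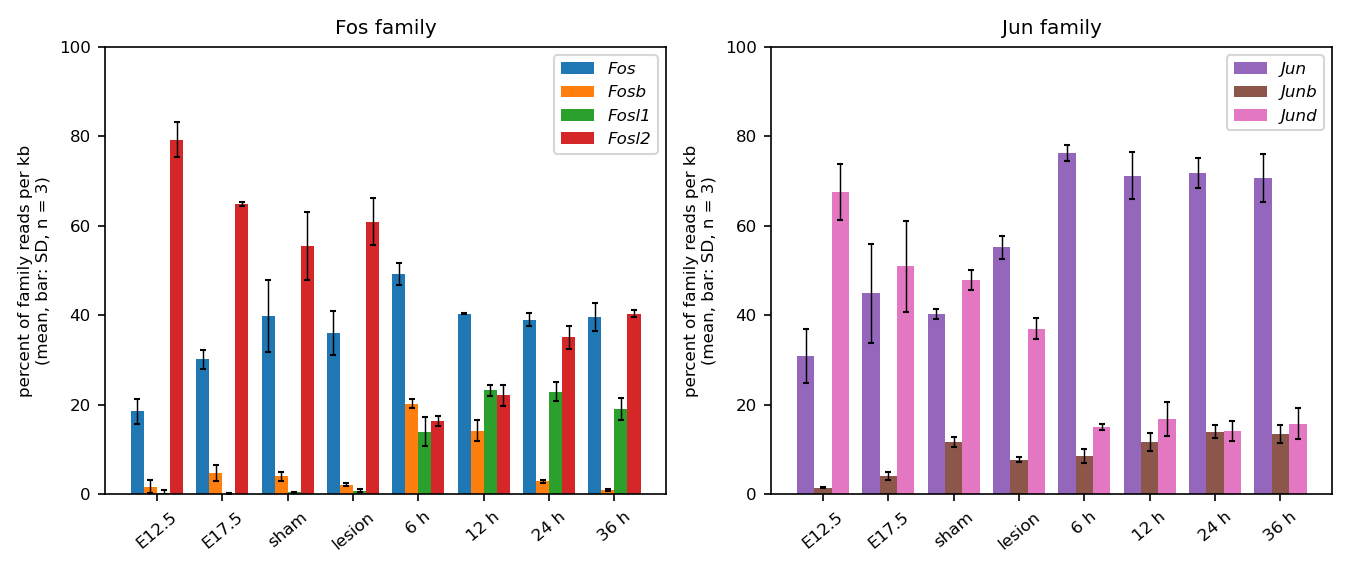
Share of each gene in the summed reads per kb of the 4 Fos genes (left) and the 3 Jun genes (right), bars for the mean of 3 libraries and lines for the SD. Fosl2 leads the Fos genes in embryonic and operated ganglia and Fos at 6 h, and Jun goes from 40.4% after sham surgery to 76.3% at 6 h.

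Between the embryonic ages Fos, Fosb and Fosl2 rose and Jun and Jund fell, while Atf3, Junb and Atf2 were not called. This was 3 rises and 2 falls among 8 tested genes, where 31.1% of all 14550 genes rose and 31.9% fell (63% either way). The ages came in separate library number series, so the effects of age and series cannot be told apart. Fos went from 8.78, 10.3 and 13.0 at E12.5 to 49.8, 52.9 and 37.0 at E17.5 (2.03 ± 0.31, adjusted p = 4.88e-04), and Fosl2 from 125, 159.97 and 138 to 319.6, 339 and 271 (1.13 ± 0.16, adjusted p = 3.77e-04). Fosb went from 1.10, 0.642 and 3.60 to 11.4, 10.6 and 16.2, and passed the filter only through the later age (2.43 ± 0.54, adjusted p = 0.00391). Fos, at 8.78 in E12.5 replicate 1, also needed the later age to pass, so neither of these calls is independent support. For each of the 3 genes the ages did not overlap, but the share of all genes without overlap was not counted. In E17.5 replicates 2 and 3 Fosb rested on 3 and 7 reads and Fos on 15 and 16.

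Atf3 was low at both ages, at 32.9, 27.6 and 52.6 at E12.5 and 45.0, 35.3 and 64.7 at E17.5 (0.36 ± 0.33, adjusted p = 0.374). The sham mean was 11.5 times that at E17.5, a difference that was not tested. Fosl1 rested on 1 read at each age over the 3 libraries.

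In Jun, Jund and Junb, E17.5 replicate 3 stood well above the other two E17.5 libraries. Jun was at 2059.6, 2147 and 2489 at E12.5 and at 1002, 892 and 1915 at E17.5 (-0.89 ± 0.26, adjusted p = 0.0157), and Jund at 2852, 2849.96 and 2069 against 468, 402 and 1949 (-1.84 ± 0.55, adjusted p = 0.0199). Without E17.5 replicate 1 or 2 neither was called (adjusted p = 0.062 to 0.0689), and Jund was also not called without E12.5 replicate 1 or 2 (adjusted p = 0.0911 and 0.0831). Junb stood at 58.7, 62.3 and 62.0 against 43.3, 31.7 and 169. Its difference of 0.02 ± 0.54 became -0.70 without E17.5 replicate 3 and was then called lower (adjusted p = 0.0364), and its sign changed with TMM scaling (-0.03).

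The E17.5 libraries also differed in how reads were spread over GC content. For each library a slope was taken of the log2 deviation from its group mean on the GC content of 10144 genes. At E17.5 the slopes were 0.08, -0.32 and 0.24 per 10 points of GC in replicates 1 to 3, and the cultures ranged from -0.41 in 12 h replicate 1 to 0.26 in 12 h replicate 2. In sham, lesion and E12.5 libraries all slopes lay between -0.03 and 0.03. Jund has the highest GC content of the 9 genes, 67.2%, above the 95th percentile of 59.8% over those genes, and Atf2 the lowest, 40.55%. In 7 of 8 groups the library with the lowest slope had the lowest Jund value, and in 7 of 8 it had the highest Atf2 value. Fosl1, at 58.5% GC, also had its lowest value there in 7 of 8 groups, ties at 0 included, and Atf3, at 52.2%, in 4 of 8. Junb, at 62.6% GC also above the 95th percentile, had its lowest value there in 4 of 8 groups and its highest in 2. The part of GC content in the other results was not tested. The trend within groups was also removed, a step chosen after seeing the data that takes out spread without counting the lost degrees of freedom. By construction it leaves group means, and so the log2 differences, unchanged, and it takes out no GC difference between groups. With it Jun rose from 6 to 36 h (adjusted p = 0.0275), Fosl2 rose (adjusted p = 0.0279) and Atf3 fell (adjusted p = 0.0185). Jund was still not called (adjusted p = 0.132).

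**Figure D5:**
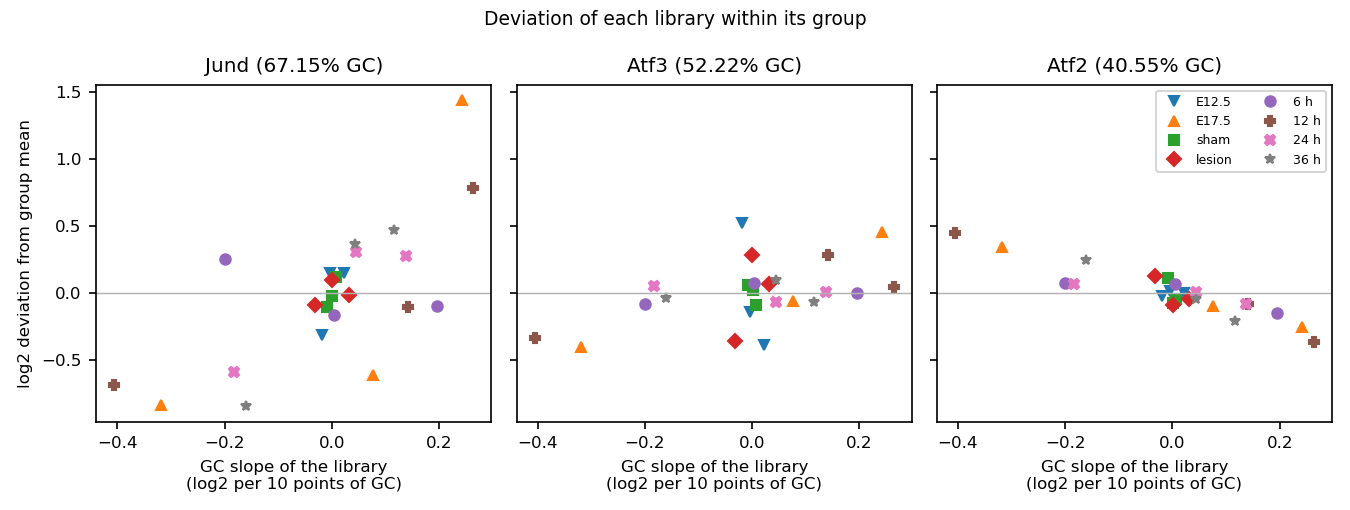
Log2 deviation of each library from its group mean (y axis) against the GC slope of that library (x axis, log2 per 10 points of GC) for Jund, Atf3 and Atf2, with a symbol for each of the 8 groups. Jund tends to lie higher and Atf2 lower in libraries of high slope, from -0.41 to 0.26.

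Across the 8 groups the order of levels differed by gene. Fos and Fosb were highest at 6 h and lowest at E12.5, and for Fosb every neighbouring pair in the order was apart down to the 36 h culture. For Atf3 the order was 12 h, 6 h, 24 h, lesion and 36 h, each overlapping the next, then sham, apart from its neighbours, and the embryonic ages, which overlapped. Jun ran from 36 h (8819 ± 1660.2) to E17.5 (1269.5 ± 561), with the 4 culture times overlapping one another. Its lesion range reached just above the lowest 24 h library and was apart from the other culture times, and sham overlapped both embryonic ages, which did not overlap each other. For Fosl2 36 h, 24 h and 6 h overlapped in turn, 12 h and lesion stood apart from their neighbours, sham overlapped E17.5, and E12.5 was apart. Jund was highest at E12.5 (2590.4 ± 452), followed by lesion, and from sham downwards each group overlapped the next. Atf2 varied least, from 1543 ± 129 at 6 h to 723 ± 118 at 36 h. Junb was lowest in embryonic ganglia, at 61.0 ± 1.98 and 81.3 ± 76.0, and Fosl1 was high only in culture.

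By Pearson correlation of the 8 group means on the log2 scale, over 11911 genes, the genes most like Atf3 were Stat5b (r = 0.99), Tecta (0.99), Ell2 (0.99), Zmat3 (0.99) and Wrnip1 (0.99). Tecta, for example, had means of 37.5 at E12.5, 238 after sham surgery, 747 after lesion and 739.9 at 36 h. The genes most like Jun were Rin1 (r = 0.98), Akap2 (0.98), Gadd45a (0.98), Flrt3 (0.98) and Efhd2 (0.98). Gadd45a, which acts in the response to DNA damage and stress, went from 358 after sham surgery to 1919 after lesion and 3467 at 6 h. Those most like Fos were Ptprm (r = 0.99), Cxcl10 (0.99), Mnda (0.99), Cobll1 (0.99) and Sdc4 (0.99). Cxcl10, a chemokine, had means of 42.9 after sham surgery, 84.6 after lesion and 1259 at 6 h. The correlation does not weigh the size of a change. Wrnip1 had means of 652 after sham surgery and 1019 after lesion, and Ptprm of 240.8 and 240.7. These are descriptions over 8 means from the same 24 libraries, and no p was computed.

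Partners and regulators of AP-1 were counted over lists of known genes, with no test of a list. The shares to set beside these counts are the 20.9% of all genes that rose and 20.2% that fell after lesion, and the 25.3% in each direction from 6 to 36 h. After lesion 14 of 23 tested other bZIP genes rose and 0 fell (median log2 difference 0.36, against -0.01 over all genes), and in culture 3 of 24 rose and 9 fell from 6 to 36 h (median -0.08, against 0.02). Bach1, a repressor of oxidative stress genes, rose after lesion to 1947 ± 374 from 641 ± 23.8. In culture Cebpd rose to 1067 ± 342 from 164 ± 29.1 and Atf5 to 2187 ± 365 from 911 ± 142, while Bach2 fell to 325 ± 19.6 from 779 ± 64.0 and Maff to 441 ± 24.6 from 853 ± 107.

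In the DLK and JNK cascade, which activates Jun protein, 3 of 14 genes rose and 5 fell after lesion (median -0.10), the rises near the share over all genes, and from 6 to 36 h 2 rose and 8 fell (median -0.68). Mapk10, the neuronal JNK, fell after lesion to 3057 ± 295 from 4940 ± 138 and in culture to 1281 ± 122 from 4103 ± 194. Map2k4, a JNK kinase, fell after lesion to 3290.2 ± 149 from 4535 ± 144, and Map3k5 fell in culture to 199 ± 9.20 from 465 ± 43.1. Map3k11 rose in both, by 0.44 ± 0.09 and 1.54 ± 0.19, and Sh3rf1, a JNK scaffold, by 0.38 ± 0.11 and 0.39 ± 0.15. Neuron markers fell beside them in culture, 4 of 8 with a median of -0.55, and after lesion 4 of 8 fell and 2 rose.

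In the ERK, SRF and CREB arm, which drives Fos transcription, 7 of 20 rose and 1 fell after lesion (median 0.09), and 7 rose and 3 fell in culture (median 0.08). Rps6ka1 and Elk3 rose after lesion by 1.19 ± 0.13 and 0.90 ± 0.14, and Mapk3, which encodes ERK1, fell by 0.23 on the log2 scale. In culture Elk3 rose to 818 ± 41.0 from 194 ± 24.9 and the SRF partner Mkl1 to 642 ± 96.4 from 242 ± 29.7, and Mapk3 fell by 0.85 on the log2 scale. Of the MAP kinase phosphatases 5 of 9 rose and 1 fell after lesion (median 0.31), with Dusp14 and Dusp7 up by 0.89 ± 0.14 and 0.83 ± 0.11. In culture 2 of 10 rose and 2 fell (median 0.05), and here Dusp6 went to 1054 ± 82.3 from 595 ± 65.2 and Dusp8 to 646 ± 86.0 from 1484 ± 183. Dusp14 rose again by 0.58 ± 0.23, and Dusp5 fell to 52.7 ± 12.3 from 128 ± 9.73.

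Of the other immediate early genes 5 of 19 rose and 5 fell from 6 to 36 h (median 0.13), which is near the share over all genes in both directions. Egr1 fell to 1197 ± 196 from 3818 ± 96.5 and Klf6 to 5307 ± 566 from 9757 ± 1141, whereas Nr4a1 rose to 600.4 ± 27.2 from 247 ± 49.5 and Ier3 to 1462 ± 156 from 752 ± 64.2. After lesion 12 of 17 rose and 0 fell (median 0.65), led by Btg2 (449 ± 44.9 from 186 ± 9.31) and Zfp36 (273 ± 40.9 from 115 ± 13.6).

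Injury genes of sensory neurons, several of them known targets of Atf3 or Jun, were chosen for their known rise after axotomy, so their direction after lesion is no independent evidence. Of 26 tested, 23 rose and 0 fell after lesion (median 2.23). Sprr1a, a small proline-rich protein, stood at 19137 ± 4546 against 469 ± 153, and the peptide gene Npy at 428 ± 187 against 13.0 ± 2.16. From 6 to 36 h 17 of 28 rose and 5 fell (median 1.08), and a part of Atf3 or Jun in this was not tested. Sprr1a rose to 2979 ± 397 from 29.8 ± 15.8 and Ecel1, a neuronal protease, to 1319 ± 304 from 54.6 ± 5.94, whereas Hmox1, the heme-degrading enzyme, fell to 1395 ± 292 from 3802 ± 912 and Plau to 114 ± 29.7 from 256 ± 28.0.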

How the data were processed

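RNA of 24 mouse dorsal root ganglion libraries, 3 in each of 8 groups, was sequenced from Illumina TruSeq V2 libraries per the labels' protocols. The submitters' processing notes name TopHat and mm10. Not given in the sources used here are the aligner's version, the annotation, the counter and the method behind the scaling factors. The deposited signal values are read counts that the authors divided by 1 factor per library, as read from the values: all 339603 values checked (100%), each of up to 1000 reads, were whole multiples of 1 read within a tolerance of 0.1. As the table was normalized, limma and not a count test was the main test.

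Values were taken as log2(value + 1), which understates changes of low genes. Genes with a value of at least 10 in 3 libraries of a fit were tested with limma 3.58.1 (trend, robust) in R 4.3.3, with Benjamini-Hochberg adjustment over all genes and a threshold of 0.05. Every adjusted p comes from limma unless another tool is named. Lesion with sham, the cultures and the embryonic ages each used their own libraries, and comparisons across them used 1 fit over all 24. The change relative to Fos was fitted on each gene's log2 value minus that of Fos. edgeR 4.0.16 and DESeq2 1.42.0 on the recovered reads, other filters, pseudocounts, scalings and spreads, and leaving out each library were tried as alternatives. Poisson intervals on pooled reads are exact at 95% and cover counting error only.

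The 9 members are always named. Sustained genes were those called higher after lesion and at 36 h than after sham surgery, and decaying genes those called lower at 36 h than at 6 h. For Atf3, Jun and Fos the 5 genes of highest correlation over the group means are named, among genes with a group mean of at least 100, and for each gene list up to 2 genes in each direction by size of change among those called with a group mean of at least 100; some genes that this rule names are not reported here. The members and lists were chosen with earlier results of these data known.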

Additional observations from a re-analysis of the deposited data

How the results depend on the processing

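Of the values for single genes under alternatives, 1633 kept their direction and side of the threshold, 33 passed it newly, 43 fell short of it and 17 changed sign; of the counts 358 stayed within 1.5 times and 38 did not. Lesion called 5990 genes, and 2615 with 1 spread over all 24 libraries. From 6 to 36 h 5 members were called, 8 with the GC trend within groups removed (added after seeing the data) and 3 to 7 leaving out 1 library. From 6 to 12 h 1588 genes and 2 members were called, 3017 and 4 with the GC trend removed, 880 to 2618 and 2 to 5 leaving out 1 library. From 12 to 24 h 1734 genes and 2 members were called, 3042 and 6 with the GC trend removed, 731 to 2564 and 1 to 3 leaving out 1 library, and 1 member with no filter, limma without trend and robust, or 1 spread. From 24 to 36 h 398 genes and 1 member were called, 249 genes with no filter, 1079 with DESeq2, 170 with limma without trend and robust, 823 with 1 spread, 1903 genes and 2 members with the GC trend removed, and 67 to 1040 genes leaving out 1 library. Between the embryonic ages 5 members were called, 3 with a filter of 50 and 2 to 5 leaving out 1 library. The lowest counts in the last step and the 12 to 24 h step came without 24 h replicate 3 and replicate 1, and the highest in each step without 12 h replicate 1, one of the 5 shallow libraries. The values that changed sign were all uncalled as reported. Junb from 12 to 24 h was -0.0946 with edgeR, -0.0839 with DESeq2 and -0.406 to 0.318 leaving out 1 library, and Junb between the embryonic ages was -0.0274 with TMM scaling and -0.7032 to 0.4841 leaving out 1 library. The other ranges leaving out 1 library were -0.0797 to 0.04 for Atf2 after lesion, -0.1232 to 0.2388 for Fosl1 from 6 to 12 h, -0.101 to 0.0662 for Fos from 24 to 36 h, -0.2382 to 0.0612 for Atf2 between the embryonic ages, -0.548 to 0.1112 for Jund at 36 h against sham and -0.3164 to 0.0038 for Atf3 at 36 h against lesion. With the library number series as a covariate, lesion called 5681 genes and 5 members, and no member's call changed. No paired analysis by replicate number was possible because the labels give no replicate numbers shared between groups. The cause of these shifts was not tested. Few reads lay behind Fosl1 in ganglia, at most 8 in a library, so that small differences there were not detectable at this depth. With no filter, where Fosl1 was tested after lesion, 6 members were called, and the added call was that of Fosl1. That call rests on these few reads.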
